A study of Rattus norvegicus with 9 samples.

Results

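The genes described here were the epidermal growth factor (EGF) and neuregulin ligands Nrg1, Hbegf, Tgfa, Btc, Ereg and Areg and the ErbB receptors Egfr, Erbb2, Erbb3 and Erbb4. They were taken from the deposited expression tables by gene symbol, and these 10 genes, 6 ligands and 4 receptors, were each found once among the 32883 genes of the table. RNA was measured in 9 libraries of cultured, untreated fibroblasts of wild-type male Lewis rats of 10 weeks of age, with 3 libraries for each of 3 types. Fb-Epn came from the epineurium, the connective sheath around the sciatic nerve, and Fb-Par from the parenchyma that the sheath encloses, separated by hand from the nerves of 2 rats. Fb-Skn were grown from abdominal skin taken from 1 other rat, and all cells were passaged 1 time before RNA was taken. Tissue, body site and rat changed together between the nerve and skin types and cannot be told apart. The sources do not say that the libraries of a type were separate cultures, so the p-values measure the spread between these libraries, which may be technical.

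The ligands are made as membrane-bound precursors whose EGF-like domain can be released by proteases. Hbegf, Tgfa, Btc, Ereg and Areg encode ligands of the EGF receptor, of which heparin-binding EGF, betacellulin and epiregulin can also act through ErbB4, whereas neuregulin 1 binds ErbB3 and ErbB4. The receptors are tyrosine kinases that signal as pairs. ErbB2 has no known ligand of its own and serves as a partner, and ErbB3 has little kinase activity and signals mainly with ErbB2. In peripheral nerve, neuregulin 1 on axons acting on ErbB2 and ErbB3 of Schwann cells governs survival, migration and myelination of these cells, and after nerve injury Schwann cells also make neuregulin 1.

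Total counts were 10084584 to 12310506 per library, and no pair of libraries of a type agreed within counting noise. The 7 fibroblast markers found in the table were expressed in every type. Genes listed as markers of other cell types were also counted. In the immunolabelling of the study all cells carried type 1 collagen and Thy1, and labelling for S100b and Cd31 was negligible. The summed level of 12 Schwann cell markers, in TPM (transcript abundance scaled to transcript length and library depth), was 236 to 248 in Fb-Epn, 284 to 291 in Fb-Par and 21.0 to 23.0 in Fb-Skn, and that of 7 macrophage and leukocyte markers was 306 to 336, 88.4 to 90.7 and 24.9 to 26.8. Taken in the same order of types, 7 endothelial markers summed to 15.6 to 16.3, 10.4 to 11.8 and 1.004 to 1.604 TPM, 6 pericyte markers to 20.03 to 24.65, 158 to 168 and 26.2 to 29.2 TPM, 4 perineurial markers to 156 to 163, 41.3 to 46.7 and 75.3 to 84.1 TPM, and 7 epithelial markers to 2.45 to 2.91, 3.30 to 4.74 and 2.89 to 4.16 TPM. Some sums were made mostly of few genes, such as S100b at 130 TPM in Fb-Epn, and Cspg4 at 73.1 TPM and Notch3 at 72.5 TPM in Fb-Par. Single markers could depart from their sum, as the endothelial marker Tek was at 8.37 TPM in Fb-Epn and 10.2 TPM in Fb-Par. The sums alone therefore do not show that a cell type was present. For a gene carried by a few cells of a culture, fewer such cells and less RNA per cell cannot be told apart in these bulk samples.

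A gene was called different between a pair of types at an adjusted p below 0.01 in edgeR's quasi-likelihood test of the counts, and differentially expressed (DE) where the log2 fold change also passed 2. The limits were set after those of the study, which used the P of Tukey-Kramer tests on TPM and not this adjusted p. Of the 10 genes, 8 were tested, and Areg and Erbb4 fell below the expression filter. Between Fb-Epn and Fb-Skn all 8 tested genes were called, 7 higher and 1 lower in Fb-Epn, and 3 of them were DE, against 43.9% of all 13273 tested genes called (23.0% higher, 20.9% lower) and 8.44% DE. Between Fb-Par and Fb-Skn all 8 were called, 5 higher and 3 lower in Fb-Par, and 4 were DE, against 45.6% called (23.2% higher, 22.4% lower) and 8.54% DE. Between Fb-Epn and Fb-Par 5 were called, 3 higher and 2 lower in Fb-Epn, and 2 were DE, against 38.8% called (20.2% higher, 18.6% lower) and 6.48% DE. Btc, Ereg and Erbb3 passed the filter only through the types in which they were high, so the count of called genes says less than their values below. The 3 comparisons share libraries and are not independent of each other.

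Among the ligands, Nrg1 was highest in the epineurial cells. In replicates 1 to 3 its level was 13.7, 15.1 and 15.2 TPM in Fb-Epn, 2.65, 2.27 and 2.31 TPM in Fb-Par and 5.93, 5.76 and 5.75 TPM in Fb-Skn. The 3 types did not overlap, and the parenchymal cells stood lowest. Nrg1 was 6.12-fold higher in Fb-Epn than Fb-Par (log2 fold change 2.61 ± 0.102 (SE), adjusted p = 2.2e-11 in edgeR), and this passed the DE limits. It was 1.20 ± 0.092 (SE) higher on the log2 scale in Fb-Epn than in Fb-Skn (edgeR, adjusted p = 4.7e-08). Fb-Par lay below Fb-Skn by a log2 fold change of -1.42 ± 0.108 (SE; edgeR, adjusted p = 3.9e-08), so the nerve types stood on either side of skin. Nrg1 (ENSRNOG00000010392) spans chr16:63837216-64057434 on the plus strand of rn6. It is transcribed from several promoters into isoforms with different N-terminal domains, and the gene-level counts do not separate them. The summed perineurial markers had the same order of types as Nrg1 and were made mostly of Slc2a1. The tight junction gene Cldn1 was at or near 0. Perineurial fibroblasts are counted by the paper within Fb-Par, where this sum was lowest. The part of these markers in the level of Nrg1 was not tested.

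**Figure D1:**
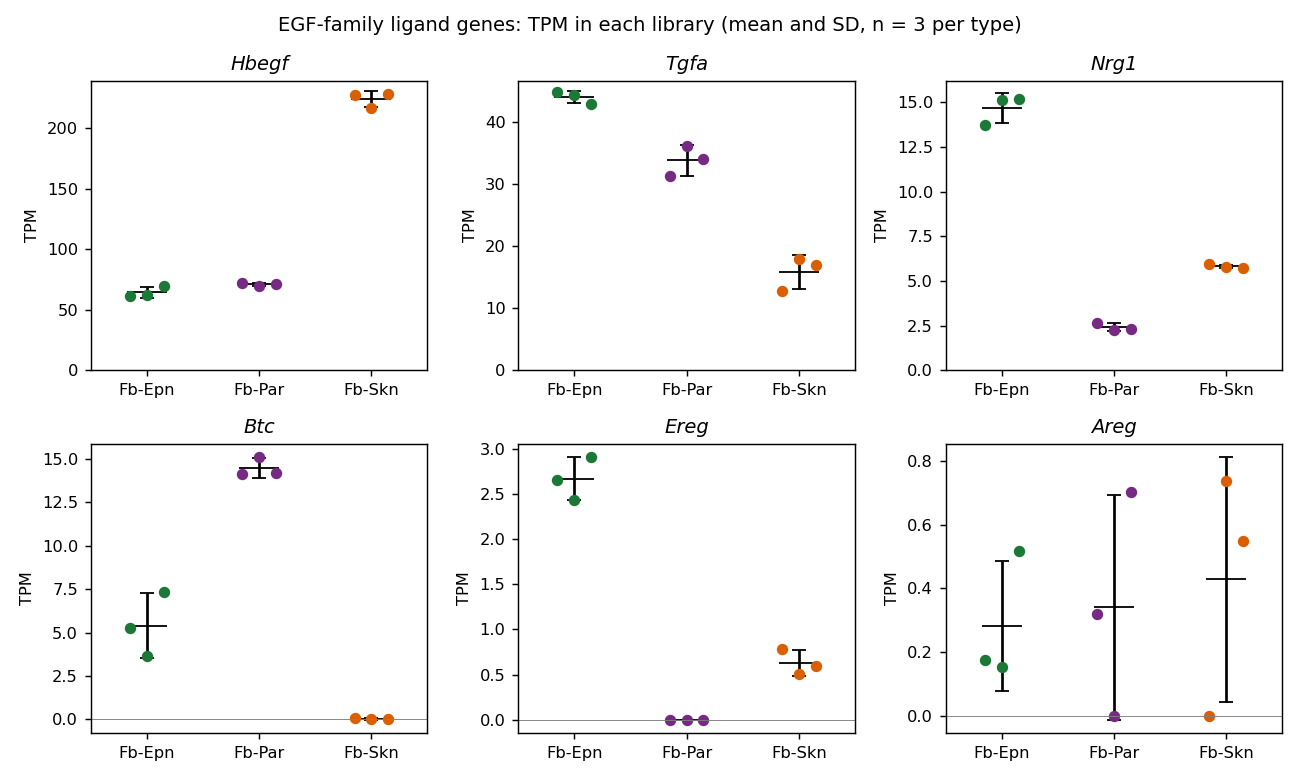
TPM of the 6 ligand genes in each library (points, 3 per type) with the mean and SD of each type; each panel has its own linear axis. Nrg1 and Ereg were highest in Fb-Epn, Btc in Fb-Par and Hbegf in Fb-Skn, where it reached 217 to 228 TPM, and Areg stayed below 1 TPM in mean level in every type.

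Hbegf, which encodes heparin-binding EGF, was the most abundant of the ligands in all 9 libraries and was the ligand highest in skin. Its level was 61.7, 62.1 and 69.9 TPM in Fb-Epn, 72.3, 69.8 and 71.4 TPM in Fb-Par and 228, 217 and 228 TPM in Fb-Skn. Every skin library lay above every nerve library, while the ranges of the nerve types met. Fb-Skn exceeded Fb-Epn 3.83-fold (log2 fold change -1.94 ± 0.052 (SE) for Fb-Epn against Fb-Skn, adjusted p = 2.8e-13 in edgeR) and Fb-Par 3.49-fold (-1.81 ± 0.052 (SE), adjusted p = 5.3e-13). Between Fb-Epn and Fb-Par the log2 fold change was -0.13 (95% interval -0.25 to -0.02), which did not pass the test (edgeR, adjusted p = 0.058). Without Fb-Epn replicate 3, the highest of its type, it was -0.19 with an adjusted p of 0.00792 in edgeR, and over the other alternatives tried with a test the adjusted p was 0.0468 or more. Hbegf (ENSRNOG00000018646) lies at chr18:29329764-29340403 on the minus strand of rn6.

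Tgfa, which encodes transforming growth factor alpha, ran in the opposite order to Hbegf between nerve and skin. It measured 44.8, 44.3 and 42.9 TPM in Fb-Epn, 31.2, 36.2 and 34.0 TPM in Fb-Par and 12.8, 17.9 and 17.0 TPM in Fb-Skn, with no overlap between types. Fb-Epn was above Fb-Skn by 1.34 ± 0.091 (SE) on the log2 scale (edgeR, adjusted p = 1.3e-08) and Fb-Par above Fb-Skn by 0.94 ± 0.092 (SE; adjusted p = 6.4e-07). The step between the nerve types was smaller, at 0.39 ± 0.085 (SE; edgeR, adjusted p = 0.0014), and it lost its call without Fb-Par replicate 1 (0.34, adjusted p = 0.0102) and in all 3 limma alternatives, on log2(TPM + 1) (0.37, adjusted p = 0.0262), on log2(TPM + 0.1) (0.38, adjusted p = 0.0296) and on log2(FPKM + 1) (0.38, adjusted p = 0.0213). Tgfa (ENSRNOG00000016182) lies at chr4:117962319-118046344 on the plus strand of rn6. The summed macrophage and endothelial markers also fell in the order Fb-Epn, Fb-Par, Fb-Skn. Of 4 endothelial markers tested, 2 were higher and none was lower in Fb-Epn than Fb-Par. Tek, the most abundant of them, had its higher mean in Fb-Par (10.2 TPM, against 8.37 TPM in Fb-Epn). The part of these markers in the level of Tgfa was not tested.

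Btc, which encodes betacellulin, was a transcript of the nerve cultures. The libraries of Fb-Epn held 65, 51 and 92 counts, those of Fb-Par 191, 177 and 175 counts and those of Fb-Skn 1, 0 and 0 counts. Fb-Epn had a mean of 5.41 ± 1.85 TPM (SD, n = 3), and Fb-Par reached 14.5 ± 0.556 TPM (SD, n = 3). The types did not overlap, and skin was at the edge of detection with 1 read in all. Fb-Par exceeded Fb-Epn 2.67-fold (log2 fold change -1.42 ± 0.214 (SE) for Fb-Epn against Fb-Par, adjusted p = 6.7e-05 in edgeR). The ratio of depth-scaled counts to those of Fb-Skn was 179 for Fb-Epn (95% interval 31.8 to 7118) and 482 for Fb-Par (86.1 to 19073), intervals that cover counting error only. In edgeR the adjusted p of these comparisons was 3.8e-08 and 9.4e-10. The single read was in Fb-Skn replicate 1, and without that library the fitted log2 fold change rose from 7.08 to 9.05 in Fb-Epn and from 8.49 to 10.47 in Fb-Par, values that then depend on the prior count.

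Ereg, which encodes epiregulin, was low throughout and was called in all 3 comparisons, but it passed the filter only through Fb-Epn. It had 28, 29 and 31 counts in Fb-Epn, 9, 5 and 6 counts in Fb-Skn and 0 counts in each library of Fb-Par. Fb-Epn had a mean of 2.67 ± 0.237 TPM (SD, n = 3), and the mean of Fb-Skn was 0.628 ± 0.146 TPM (SD, n = 3). Fb-Epn was therefore highest and Fb-Par lowest, the order of types seen for Nrg1. Fb-Epn exceeded Fb-Skn by 1.91 ± 0.363 (SE) on the log2 scale (edgeR, adjusted p = 0.00069). A count of 0 allows up to 3 counts in a library, and against that floor Ereg was at least 9.49-fold higher in Fb-Epn than Fb-Par (edgeR, adjusted p = 1.8e-06) and at least 2.47-fold higher in Fb-Skn than Fb-Par (edgeR, adjusted p = 0.00018). When Fb-Par and Fb-Skn were fitted alone Ereg fell below the filter, so the call between them was made only with Fb-Epn in the fit. The summed level of the macrophage markers was also highest in Fb-Epn but was lowest in Fb-Skn and not in Fb-Par, and the perineurial sum had the order of Ereg. Their part in the level of Ereg was not tested.

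Areg, which encodes amphiregulin, had 0 to 4 counts in a library and was not tested. Its counts were 1, 1 and 3 in Fb-Epn, 2, 0 and 4 in Fb-Par and 0, 4 and 3 in Fb-Skn, and at this depth no difference between types was detectable. Btc, Areg and Ereg are neighbours in the genome. Btc (ENSRNOG00000002728, chr14:18231860-18272484, plus strand), Areg (ENSRNOG00000002754, chr14:18521930-18531179, minus strand) and Ereg (ENSRNOG00000002771, chr14:18576355-18591394, minus strand) follow each other within 359535 bp of rn6. They differed in which type was highest, with Btc at 0 to 1 counts in skin, Ereg at 0 counts in the parenchymal cells and Areg near 0 everywhere. Epgn, the epigen gene, lies next to Ereg at chr14:18626644-18634309 and had 0 to 4 counts. Of the remaining ligand genes of the family, Egf, Nrg2 and Nrg4 also fell below the filter, with at most 0.644 TPM in any library.

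Promoter sequence from RefSeq (assembly GRCr8, the 250 bases before the annotated start, read 5′ to 3′ on the gene's strand) was matched by symbol for 7 of the 10 genes. It is shown for Btc and Egfr, the genes with an entry that differed most between nerve and skin, and for Areg, the near-silent neighbour of Btc, and capitals mark matches to the motifs searched. The windows were chr14:16992418-16992667 on the plus strand for Btc, chr14:95378376-95378625 on the plus strand for Egfr and chr14:17265642-17265891 on the minus strand for Areg.
Btc: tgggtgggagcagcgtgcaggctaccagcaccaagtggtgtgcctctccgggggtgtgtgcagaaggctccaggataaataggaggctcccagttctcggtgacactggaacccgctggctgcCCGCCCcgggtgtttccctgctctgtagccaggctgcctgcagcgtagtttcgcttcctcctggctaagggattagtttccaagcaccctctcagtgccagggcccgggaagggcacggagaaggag
Egfr: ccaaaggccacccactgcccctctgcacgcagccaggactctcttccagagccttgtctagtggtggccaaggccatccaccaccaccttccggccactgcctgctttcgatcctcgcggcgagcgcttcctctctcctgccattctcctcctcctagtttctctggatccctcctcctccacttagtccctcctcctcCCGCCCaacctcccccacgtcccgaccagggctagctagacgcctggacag
Areg: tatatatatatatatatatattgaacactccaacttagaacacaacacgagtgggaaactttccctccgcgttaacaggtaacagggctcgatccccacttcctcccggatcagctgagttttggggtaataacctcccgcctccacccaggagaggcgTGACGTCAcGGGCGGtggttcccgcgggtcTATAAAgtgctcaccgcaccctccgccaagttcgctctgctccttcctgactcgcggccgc
The motifs searched on both strands were the cAMP response element TGACGTCA, the AP-1 site TGACTCA, the TATA box TATAAA, the CCAAT box CCAAT, the GC box GGGCGG and the SOX motif AACAATG. The Areg window held the cAMP response element 91 bases before the start, a GC box and a TATA box, and 1.59%, 30.5% and 12.9% of the 33469 promoters in the RefSeq table held these motifs. The windows of Btc and Egfr each held 1 GC box on the minus strand, read above as CCGCCC, and no other match. The share of G and C was 62.8% in Btc, 63.6% in Egfr and 54.4% in Areg, against a median of 51.2% over all promoters. A match is a description of the letters and not a measured binding site.

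Among the receptors, Egfr was the most abundant in every library and separated nerve from skin. Its level was 53.0, 47.9 and 43.4 TPM in Fb-Epn, 42.8, 49.0 and 48.7 TPM in Fb-Par and 8.47, 8.04 and 7.27 TPM in Fb-Skn. The nerve types overlapped each other, and both stood clear of skin. Egfr was 5.49-fold higher in Fb-Epn than Fb-Skn (log2 fold change 2.46 ± 0.093 (SE), adjusted p = 1.4e-11 in edgeR) and 5.30-fold higher in Fb-Par than Fb-Skn (2.41 ± 0.093 (SE), adjusted p = 1.7e-11), and both passed the DE limits. Between Fb-Epn and Fb-Par the log2 fold change was 0.05 (95% interval -0.12 to 0.22), which did not pass the test (edgeR, adjusted p = 0.63). Its sign turned when Fb-Epn replicate 1 (-0.02) or Fb-Par replicate 1 (-0.02) was left out. Egfr (ENSRNOG00000004332) lies at chr14:99919485-100098796 on the plus strand of rn6. Hbegf, whose product is a ligand of this receptor, was highest in the type where Egfr was lowest, and Tgfa, another such ligand, was lowest there.

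Erbb2, the shared partner receptor, differed less between nerve and skin than Egfr and Erbb3. It was at 5.83, 7.09 and 5.81 TPM in Fb-Epn, 6.92, 7.02 and 7.73 TPM in Fb-Par and 3.13, 4.39 and 4.18 TPM in Fb-Skn. The nerve libraries lay above the skin libraries. Fb-Par exceeded Fb-Skn by 0.74 ± 0.138 (SE) on the log2 scale (edgeR, adjusted p = 0.00034). Fb-Epn exceeded Fb-Skn by 0.55 ± 0.139 (SE; edgeR, adjusted p = 0.0039), a call that was lost without Fb-Epn replicate 2 (0.44, adjusted p = 0.0224) or Fb-Skn replicate 1 (0.42, adjusted p = 0.022). Between the nerve types the log2 fold change was -0.20 (95% interval -0.48 to 0.09; edgeR, adjusted p = 0.24) and their ranges overlapped. Erbb2 (ENSRNOG00000006450) lies at chr10:86367596-86391728 on the plus strand of rn6 and contains on its opposite strand a U6 small nuclear RNA gene with 0 to 4 counts.

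**Figure D2:**
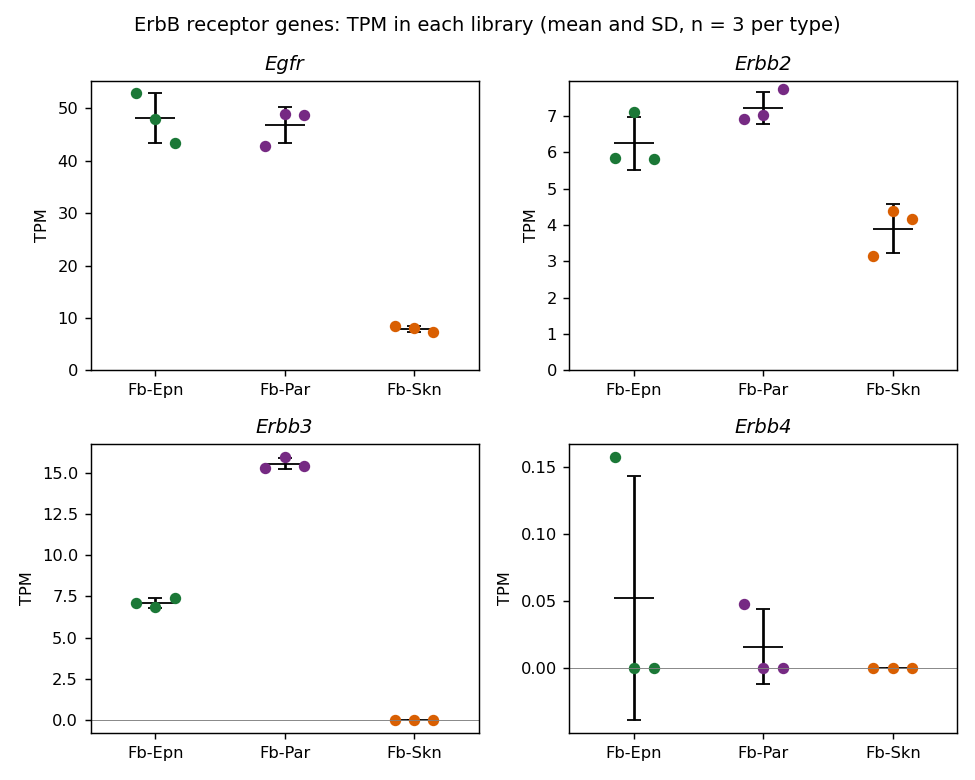
TPM of the 4 receptor genes in each library (points, 3 per type) with the mean and SD of each type; each panel has its own linear axis. Egfr was at 42.8 to 53.0 TPM in the nerve libraries and at 7.27 to 8.47 TPM in skin, and Erbb3 was at 0 in the 3 skin libraries and highest in Fb-Par.

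Erbb3, the neuregulin receptor that pairs with ErbB2, was present in all nerve libraries and had 0 counts in every skin library. There were 211, 230 and 223 counts in Fb-Epn and 499, 450 and 457 counts in Fb-Par. In TPM this was 7.08, 6.83 and 7.40 in Fb-Epn and 15.3, 16.0 and 15.4 in Fb-Par. The types did not overlap, and replicates of a type lay close together. Fb-Par exceeded Fb-Epn 2.18-fold (log2 fold change -1.12 ± 0.084 (SE) for Fb-Epn against Fb-Par, adjusted p = 2e-07 in edgeR). Against the floor of 3 counts per library, Erbb3 was at least 63.6-fold higher in Fb-Epn than Fb-Skn (edgeR, adjusted p = 8.2e-12) and at least 138-fold higher in Fb-Par than Fb-Skn (edgeR, adjusted p = 7.4e-13). Erbb3 (ENSRNOG00000004964) lies at chr7:2989340-3010350 on the minus strand of rn6. Erbb4, the other neuregulin receptor (ENSRNOG00000014248, chr9:75021790-75528644, minus strand), had 3, 0 and 0 counts in Fb-Epn, 1, 0 and 0 counts in Fb-Par and none in Fb-Skn, and was not tested.

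Erbb3 is also a transcript of Schwann cells, and several of the Schwann cell markers moved with it. Sox10, the transcription factor of the Schwann cell lineage, was at 14.5 ± 0.596 TPM (SD, n = 3) in Fb-Epn, 30.9 ± 1.20 TPM (SD, n = 3) in Fb-Par and 0 in every Fb-Skn library. The ratio of Erbb3 to Sox10 in TPM was 0.455 to 0.510 in Fb-Epn and 0.478 to 0.532 in Fb-Par, ranges that overlapped although both genes differed in level between these types. Of 10 Schwann cell markers tested, 8 were lower and 1 was higher in Fb-Epn than Fb-Par, 7 were higher in Fb-Epn than Fb-Skn and 8 were higher in Fb-Par than Fb-Skn. The cadherin gene Cdh19 had means of 2.85, 6.21 and 0 TPM in the order Fb-Epn, Fb-Par, Fb-Skn. S100b, Egr2, Prx, Gfra3 and Fabp7 did not follow this order. S100b was at 130 TPM in Fb-Epn and 119 TPM in Fb-Par, and Egr2 was at 45.1 TPM in Fb-Epn and 23.2 TPM in Fb-Par. Prx and Gfra3 were highest in Fb-Par but lower in Fb-Epn than in Fb-Skn. In the order Fb-Epn, Fb-Par, Fb-Skn, Prx had 4.81, 6.40 and 5.18 TPM and Gfra3 had 0.241, 1.95 and 1.00 TPM. Fabp7 was above 0 only in Fb-Epn, at 0.158 TPM. In Fb-Skn, Sox10, Cdh19, Mal and Fabp7 were at 0, and in Fb-Par Mal and Fabp7 were at 0. The part of Schwann cells in the levels of Erbb3 and Btc was not tested.

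**Figure D3:**
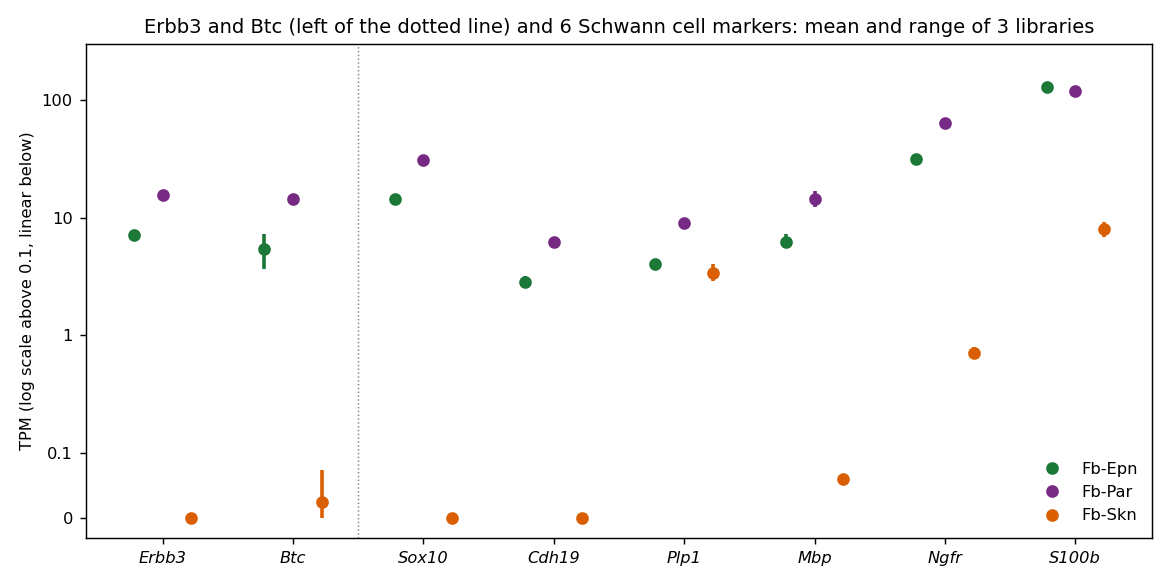
Mean TPM (points) and range of 3 libraries (bars) of Erbb3, Btc and 6 Schwann cell markers in the 3 types, on an axis that is logarithmic above 0.1 and linear below. Erbb3, like Sox10 and Cdh19, was at 0 in Fb-Skn and higher in Fb-Par than in Fb-Epn.

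As the levels are per transcript length, the genes can be set beside each other within a type. The ligand order in Fb-Epn was Hbegf, Tgfa, Nrg1, Btc, Ereg and Areg, with no overlap between neighbours. In Fb-Par Btc stood above Nrg1, and the lowest pair, Areg and Ereg, overlapped. In Fb-Skn the order was Hbegf, Tgfa and Nrg1 without overlap, and below them Areg overlapped both Ereg and Btc, which did not overlap each other. The 6 ligands summed to 128 to 139 TPM in Fb-Epn, 121 to 123 TPM in Fb-Par and 242 to 252 TPM in Fb-Skn. Hbegf made up 49.0 ± 1.20% (SD, n = 3) of this sum in Fb-Epn, 58.3 ± 1.68% of it in Fb-Par and 90.8 ± 1.21% of it in Fb-Skn, so the larger sum in skin was made of 1 gene. Nrg1 made up 11.2 ± 0.605%, 1.97 ± 0.196% and 2.35 ± 0.0635%, and Btc 4.07 ± 1.22% and 11.8 ± 0.361% in Fb-Epn and Fb-Par. These shares are descriptions of transcripts and say nothing of the released proteins, which were not measured.

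The receptors ran the other way, with sums of 56.7 to 66.0 TPM in Fb-Epn, 65.1 to 72.0 TPM in Fb-Par and 11.4 to 12.4 TPM in Fb-Skn. Egfr made up 78.1 ± 1.84% (SD, n = 3) of the sum in Fb-Epn, 67.2 ± 1.28% of it in Fb-Par and 67.1 ± 5.17% of it in Fb-Skn. Erbb3 made up 11.6 ± 1.26% and 22.4 ± 1.07% in Fb-Epn and Fb-Par, and the rest in Fb-Skn was Erbb2 at 32.9 ± 5.17%. Erbb3 and Erbb2 overlapped in Fb-Epn, with a ratio of 0.962 to 1.27, and in Fb-Par Erbb3 was 2.00 to 2.28 times the level of Erbb2. In skin, Egfr was 1.74 to 2.70 times the level of Erbb2, against 6.18 to 9.08 times in the nerve libraries.

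**Figure D4:**
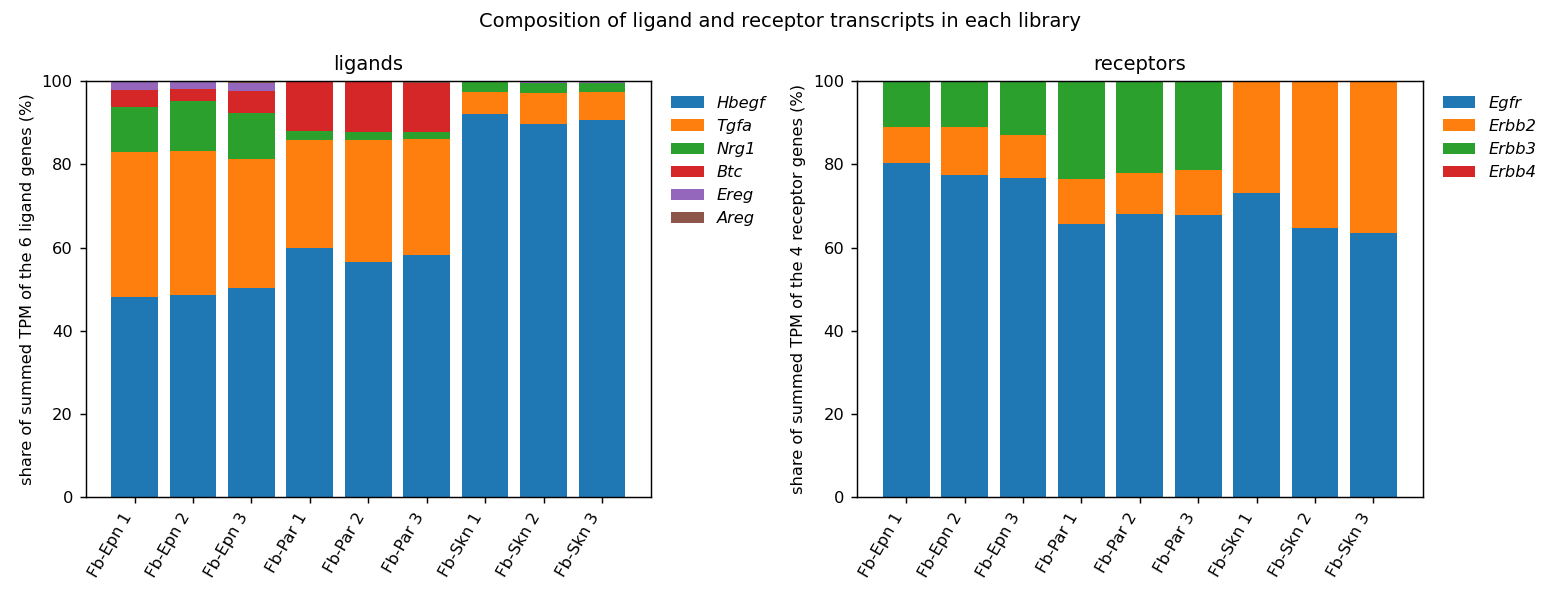
Share in percent of each ligand (left) and each receptor (right) in the summed TPM of its class, as 1 stacked bar per library from 0 to 100%. Hbegf filled 89.7 to 92.1% of the ligand bar in Fb-Skn, and the Erbb3 part of the receptor bar was present in the nerve libraries and at 0 in Fb-Skn.

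The genes whose pattern over the 9 libraries was most like that of each tested gene were named by Pearson's r of log2 CPM (counts scaled to library depth), as a description. The 9 points form 3 types, so any gene with the same order and spacing of the types reaches a high r. Erbb3 was most like Sox10 (r = 0.9999), Chl1 (0.9996) and Myo1e (0.9994), and 92 tested genes passed an r of 0.99. Btc was most like Kit (0.999), Aatk (0.9973) and Igsf11 (0.9973), and Egfr was most like Mgat3 (0.9984), Lvrn (0.997) and Nfic (0.9966). For Nrg1 these were Plod1 (0.9985), Cdca2 (0.9969) and Ccl2 (0.9967), for Ereg Espl1 (0.9984), Aebp1 (0.9984) and Prc1 (0.9971), and for Hbegf Mfge8 (0.9985), Gars (0.9972) and Loxl1 (0.9967). Tgfa came closest to Smad3 (0.996), Tmem176b (0.9936) and Cdk18 (0.9922), and 4 genes passed 0.99. Erbb2 had no gene above 0.99, with Ash1l (0.9852) first.

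The other genes of the pathway were read from a list of 52 genes by role, of which 47 were tested. Between Fb-Epn and Fb-Skn 30 were called (63.8%), 19 higher and 11 lower in Fb-Epn, with a median log2 fold change of 0.15 against 0.00 over all tested genes. Between Fb-Epn and Fb-Par 34 were called (72.3%), 14 higher and 20 lower in Fb-Epn, with a median of -0.11 against 0.00. Between Fb-Par and Fb-Skn 34 were called (72.3%), 23 higher and 11 lower in Fb-Par, with a median of 0.18 against -0.01. These shares stand above the 43.9%, 38.8% and 45.6% of all tested genes given earlier, and most of the differences were small, since DE was reached by 2, 1 and 0 genes of the list. The list was not matched to all tested genes in level, and genes with many reads can be called at small changes. Akt1, at 205 TPM in Fb-Epn and in Fb-Skn, was called at -0.14 (edgeR, adjusted p = 0.0045). Its mean TPM did not differ, so a change this small depends on how the libraries are scaled. Between these types the median log2 fold change over all genes was -0.003 in this fit and 0.116 in limma on log2(TPM + 1). The part of level in the higher shares was not tested.

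The genes of ligand release, which cut or traffic the precursors, were mostly higher in Fb-Par. Of 5 genes, 4 were lower in Fb-Epn than Fb-Par, whereas 3 were higher and 1 lower in Fb-Par than in Fb-Skn. Adam10, a shedding protease, had means of 50.5, 71.2 and 39.5 TPM in the order Fb-Epn, Fb-Par, Fb-Skn (log2 fold change -0.49 ± 0.052 (SE) for Fb-Epn against Fb-Par, edgeR, adjusted p = 1.8e-06). Bace1, a protease that cuts neuregulin 1, was at 38.8, 53.0 and 34.9 TPM and was likewise lower in Fb-Epn than Fb-Par (-0.44 ± 0.060 (SE), edgeR, adjusted p = 2.3e-05). Rhbdf2, a cofactor of the protease ADAM17, was instead highest in skin, at 7.90, 8.07 and 12.5 TPM. Among the adaptors, which link the receptors to Ras, Shc1 was highest in Fb-Epn (183, 135 and 108 TPM) and Ptpn11 highest in Fb-Par (90.3, 144 and 117 TPM). Of the 5 adaptors, 4 were higher in Fb-Par than Fb-Skn and none was lower.

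Of the 8 genes listed as receptor brakes, 4 were higher and 2 lower in Fb-Epn than Fb-Skn, and 6 were higher and 1 lower in Fb-Par than in Fb-Skn. Between the nerve types 2 were higher and 4 lower in Fb-Epn than Fb-Par. This role was assigned by the list, and whether each product restrains the receptors in these cells was not measured. Errfi1, a feedback inhibitor of EGF receptor kinases, had the largest difference of the whole list. It was at 72.1 ± 2.52 TPM (SD, n = 3) in Fb-Epn, 33.1 ± 0.558 TPM in Fb-Par and 10.3 ± 0.843 TPM in Fb-Skn, with no overlap between types. Its log2 fold change was 2.66 ± 0.065 (SE; edgeR, adjusted p = 1.1e-13) for Fb-Epn against Fb-Skn and 1.13 ± 0.057 (SE; adjusted p = 4.3e-10) for Fb-Epn against Fb-Par. The ubiquitin ligase gene Cbl was highest in Fb-Par at 21.1 TPM, against 16.8 TPM in Fb-Epn and 9.95 TPM in Fb-Skn. Lrig1, another inhibitor of ErbB receptors, was lowest in Fb-Epn at 4.57 TPM, against 8.96 TPM in Fb-Par and 8.12 TPM in Fb-Skn.

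**Figure D5:**
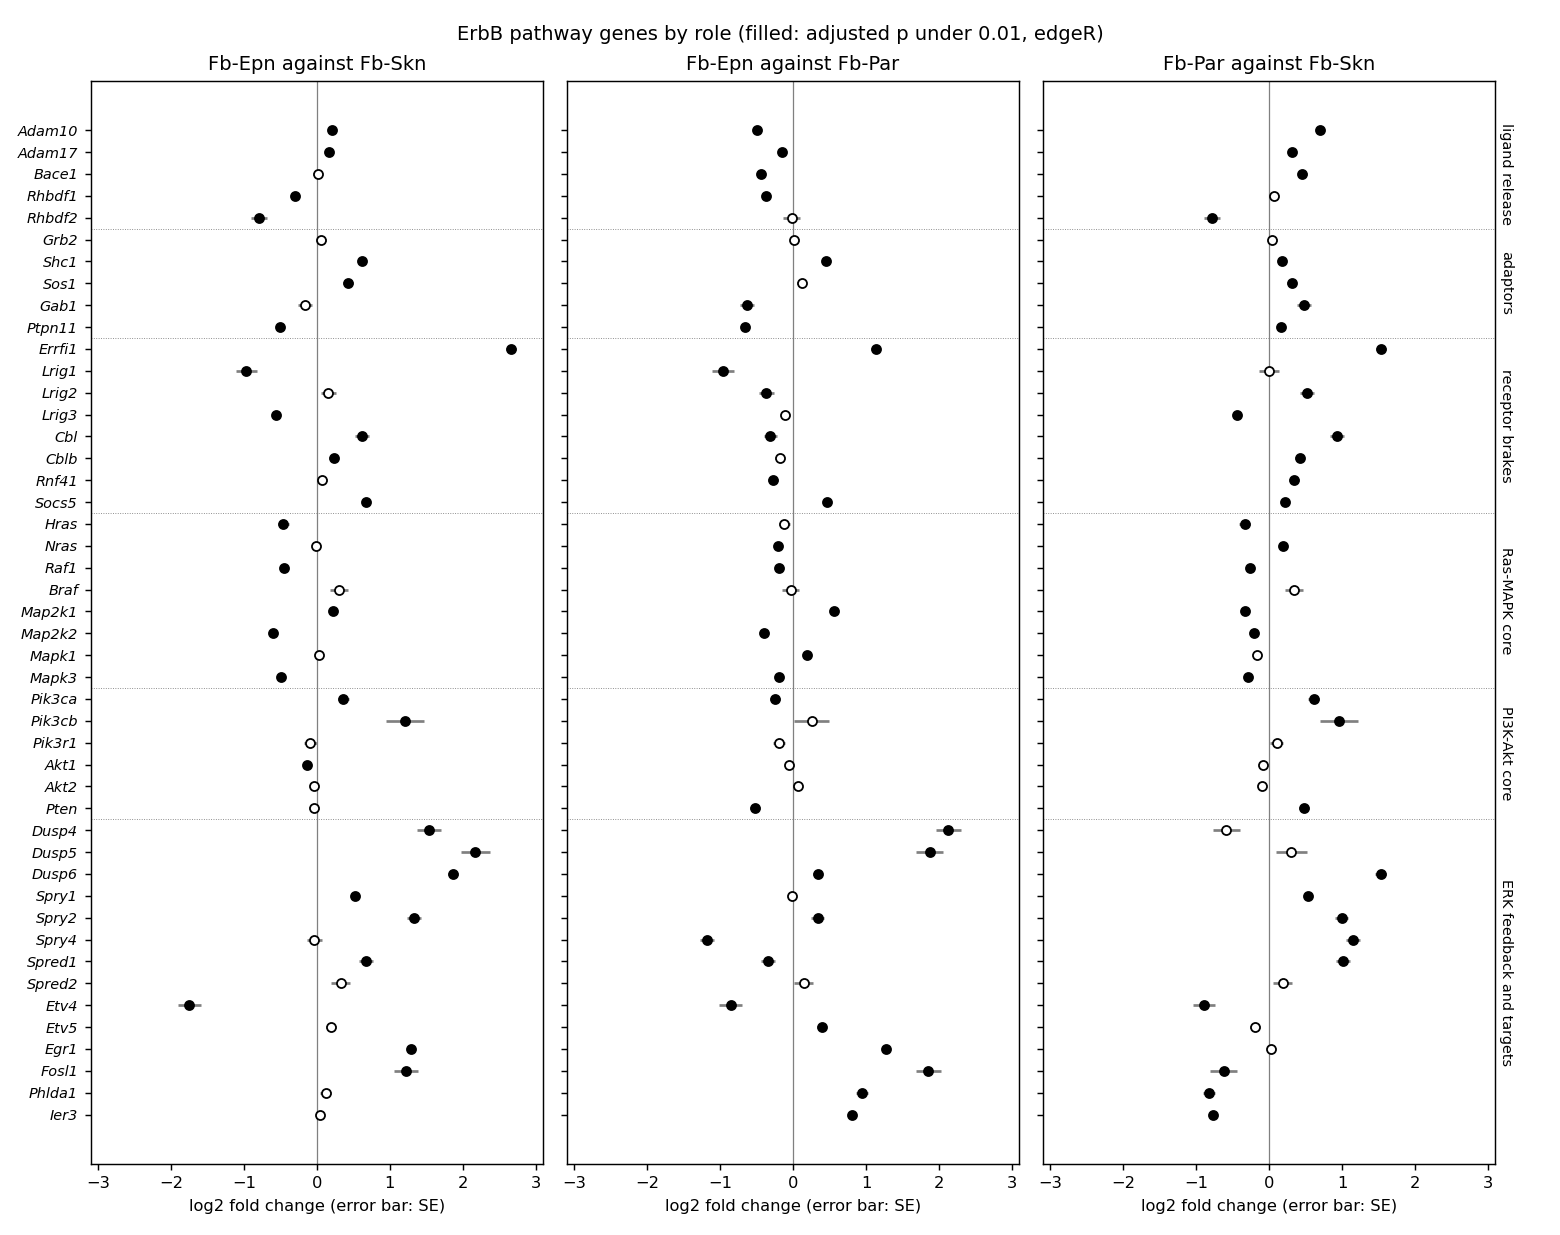
Log2 fold change of most of the tested pathway genes in each of the 3 comparisons, grouped by role, with error bars of 1 SE; filled points passed an adjusted p of 0.01 in edgeR. Errfi1, Dusp5 and Dusp6 lie farthest to the right for Fb-Epn against Fb-Skn, and the core genes of the Ras-MAPK and PI3K-Akt branches lie nearer to 0, apart from Pik3cb.

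The 14 genes of ERK feedback and targets can be switched on by the pathway. Of these, 8 were higher and 1 lower in Fb-Epn than Fb-Skn, 9 higher and 3 lower in Fb-Epn than Fb-Par, and 5 higher and 4 lower in Fb-Par than in Fb-Skn. The phosphatase genes Dusp4, Dusp5 and Dusp6 were highest in Fb-Epn. Dusp5 was at 11.7, 3.20 and 2.33 TPM in the order Fb-Epn, Fb-Par, Fb-Skn (log2 fold change 2.17 ± 0.196 (SE) for Fb-Epn against Fb-Skn, edgeR, adjusted p = 2.8e-07). Dusp4 was at 16.4, 3.77 and 5.11 TPM (2.13 ± 0.170 (SE) for Fb-Epn against Fb-Par, edgeR, adjusted p = 8.1e-08). Dusp6 was at 44.2, 35.2 and 11.0 TPM, above skin in both nerve types (1.87 ± 0.073 (SE) and 1.53 ± 0.074 (SE) against Fb-Skn, edgeR, adjusted p = 2e-11 and 2.1e-10). Not all targets had this order. The transcription factor gene Etv4 was highest in skin at 12.3 TPM, against 4.01 TPM in Fb-Epn and 7.33 TPM in Fb-Par. The feedback inhibitor gene Spry4 was highest in Fb-Par at 19.9 TPM, with 8.69 TPM in Fb-Epn and 8.09 TPM in Fb-Skn. These genes also answer to other growth factors and to serum, and phosphorylation of the receptors was not measured.

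The core genes of both branches followed. Of the 9 Ras-MAPK genes, 1 was higher and 4 lower in Fb-Epn than Fb-Skn, and 2 were higher and 5 lower in each of the other comparisons. In the order Fb-Epn, Fb-Par, Fb-Skn, Map2k2 had means of 129, 171 and 177 TPM (log2 fold change -0.60 ± 0.044 (SE) for Fb-Epn against Fb-Skn, edgeR, adjusted p = 3.2e-08) and Mapk3, which encodes the kinase ERK1, had 132, 153 and 169 TPM (-0.49 ± 0.040 (SE), edgeR, adjusted p = 1e-07). Map2k1, the gene that was higher in Fb-Epn than Fb-Skn, had 196, 134 and 153 TPM. Of the 6 PI3K-Akt genes, 2 were higher and 1 lower in Fb-Epn than Fb-Skn, none was higher and 2 were lower in Fb-Epn than Fb-Par, and 3 were higher and none lower in Fb-Par than in Fb-Skn. Pik3cb, a catalytic subunit, had means of 2.37, 2.00 and 0.936 TPM.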

How the data were processed

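The data were poly(A) RNA counts of 9 rat fibroblast libraries, and types and replicate numbers were taken from the sample labels. The authors made poly(A) strand-specific libraries, and the submitters' processing notes list FastQC 0.11.7, Trimmomatic 0.38, HISAT2 2.1.0, featureCounts 1.6.3 and the rn6 build, with no annotation release or strand setting. The authors deposited raw counts per gene, TPM of the same genes and FPKM of the same genes. Levels are the deposited TPM, differences rest on the counts, and the FPKM served as an alternative. Counts were fitted with edgeR 4.0.16 in R 4.3.3 (TMM, default filter, quasi-likelihood test, 9 libraries in 1 model, Benjamini-Hochberg adjustment over 13273 genes), and the step was checked on simulated data. The SE is the fitted log2 fold change divided by the square root of F. Libraries of a type varied with a common coefficient of variation of 8.25%. Intervals are 95% and floors are 3 counts, both for counting error where counts are named. Pathway genes are given as examples by the 3 largest changes of a role, and like patterns by the 3 highest r. The genes, the pathway list and the marker lists were chosen with earlier results of these data known. Motifs were sought in RefSeq promoters of GRCr8, whose coordinates were not mixed with rn6. Alternatives were other scalings, limma 3.58.1, DESeq2 1.42.0, other filters, the study's studentized range test, a replicate block and leaving out each library. Some listed genes enter the counts but are not reported here by name.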

Additional observations from a re-analysis of the deposited data

How the results depend on the processing

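The number of ligand and receptor genes called was 8, 5 and 8 for Fb-Epn against Fb-Skn, Fb-Epn against Fb-Par and Fb-Par against Fb-Skn, and a filter of at least 10 counts in every library left 5, 2 and 5, since by construction it removes Btc, Ereg and Erbb3. In the other alternatives that kept all libraries it was 8, 4 to 5 and 7 to 8, where the 7 came from fitting Fb-Par and Fb-Skn alone, which left Ereg below the filter. Leaving out 1 library at a time gave 7 to 8, 4 to 6 and 8 genes, and 26 to 30, 26 to 33 and 31 to 33 pathway genes called. The difference in Egfr between Fb-Epn and Fb-Par turned to -0.021 without Fb-Epn replicate 1 and to -0.016 without Fb-Par replicate 1, within a range of -0.021 to 0.119 over all libraries left out, none past the test, and the cause was not tested. The calls that were lost or gained for Erbb2, Tgfa and Hbegf stand beside their values in the report. Nrg1, Btc, Ereg and Erbb3 kept their direction and their call in every comparison and alternative in which they were tested. Against Fb-Skn, the median log2 fold change over all genes tested was -0.003 for Fb-Epn and -0.012 for Fb-Par in the fit reported, 0.116 to 0.136 in limma on log2 TPM with either pseudocount and 0.083 to 0.086 with unscaled library sizes.

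Replicate numbers gave no sign of pairing the libraries, as deviations from the type means correlated at -0.08 to 0.02 for equal numbers and at -0.045 to 0.089 for unequal ones. Counting noise can hide a shared effect in such correlations, so they cannot decide whether the numbers paired the libraries. With the replicate number as a block, 8, 5 and 8 ligand and receptor genes and 28, 30 and 33 pathway genes were called. At this depth Areg and Erbb4, with 0 to 4 counts in a library, cannot be compared between types, and a count of 0 for Erbb3 or Ereg allows up to 3 counts.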
